A study of Mus musculus with 24 samples.

Results

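The question here was whether the transcriptional response of B16 tumours to an antibody against PD-1 depended on the Chek2 genotype of the tumour cells. The measure was the genotype by treatment interaction, the change with anti-PD-1 relative to PBS in Chek2 knock-out (KO) tumours minus the same change in Chek2 wild-type (WT) tumours, on the log2(FPKM + 1) scale. FPKM is the number of fragments scaled to transcript length and library size. A positive interaction means that the response to anti-PD-1 was more positive, or less negative, in KO tumours than in WT tumours. It was computed from all 12 B16 libraries of the 24 in the series. These form 4 groups of 3 libraries, namely KO given anti-PD-1, KO given PBS, WT given anti-PD-1 and WT given PBS. The other 12 libraries come from tumours of MC38, a mouse colon carcinoma line, in the same 4 groups.

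B16 is a mouse melanoma line. The labels call its genotypes CHEK2-knock out and parental CHEK2-WT, and they name no other allele or agent; PBS was the vehicle. RNA came from whole tumour tissue, so each library mixes tumour cells with cells of the mouse. The series' text places the knock-out in the tumour cells and does not say whether they are a single clone, and no label describes an altered host. Nor do the labels state that each library is a different mouse, so the p-values below measure only the spread between libraries, which may be partly technical. In such bulk tissue a lower level can mean fewer cells of a type or less RNA per cell, and these cannot be told apart.

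Chek2 encodes CHK2, a kinase that ATM activates at DNA double-strand breaks and that passes the signal to p53, to CDC25 phosphatases and to repair proteins. PD-1 is an inhibitory receptor on activated T cells, and antibodies that block it let such cells keep killing and secreting interferon-gamma, which in turn induces antigen presentation genes and the chemokines that draw in more T cells. B16 tumours are known for low MHC class I levels, few T cells and a weak response to PD-1 blockade given alone.

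The KO anti-PD-1 libraries stood apart from the rest before any gene was considered. Across the tested genes they correlated with the other 9 libraries at r = 0.873 to 0.951 (27 pairs), while those 9 correlated with each other at 0.951 to 0.983 (36 pairs), as a description of libraries that share their genes. The FPKM of all genes summed to 375193 to 398474 in the KO anti-PD-1 libraries and to 319980 to 344059 in the other 9. Depth was estimated at 20650000, 23710000 and 19720000 full-read equivalents in the KO anti-PD-1 libraries and at 13650000 to 17580000 in the other 9. The interaction rests on those 3 libraries, and no contrast is left without them, so what is reported below cannot be told apart from a difference of that set of libraries as such. Chek2 itself (chromosome 5, 110839979 to 110874145, mm10) was 6.5, 6 and 6.75 FPKM in KO anti-PD-1 tumours and 5.68, 5.64 and 5.67 FPKM in KO PBS tumours, against 7.52, 9.29 and 7.87 FPKM in WT anti-PD-1 tumours and 7.70, 7.93 and 7.17 FPKM in WT PBS tumours. Every KO library lay below every WT library, and KO against WT averaged over treatments was -0.34 ± 0.0612 log2 (SE; limma, adjusted p = 0.00285), a comparison in which 26.5% of genes were called, 7.54% higher and 19% lower. Transcript remained in KO tumours, in which RNA of the mouse's own cells and of the edited cells was not separated, and the interaction of Chek2 was 0.06 ± 0.122 (limma, adjusted p = 0.761). The tumour label fitted its markers: the summed FPKM of 18 melanocyte genes was 6167 to 7787 in KO anti-PD-1 libraries, 6427 to 7283 in KO PBS, 6773 to 7593 in WT anti-PD-1 and 6420.1 to 7346 in WT PBS.

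The response to anti-PD-1 differed between genotypes for a large share of the transcriptome. Of 13627 genes tested, 3203 (23.5%) had an interaction at an adjusted p under 0.05 in limma, 1213 of them positive (8.9%) and 1990 negative (14.6%), and the median over all genes was -0.02. The called interaction was at least 1 log2 unit in 152 positive and 509 negative genes. The split between directions depended on the scaling: with every library rescaled to an equal FPKM sum, 422 were positive and 2951 negative and the median of all genes moved to -0.19, and among protein-coding genes alone, rescaled to their own sum, 365 were positive and 2445 negative with a median of -0.17. Directions below are as deposited, so a small positive interaction is relative to a centre that differs by that much between scalings.

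The genes with an interaction moved in KO tumours and were not found to move in WT tumours. Anti-PD-1 against PBS gave 5988 called genes in KO tumours (43.9%), of which 2580 were higher (18.9%) and 3408 lower (25%). In WT tumours it gave 0 called genes (0%) by limma, 281 at an unadjusted p under 0.05 and a smallest adjusted p of 1; a limma fit of all 24 libraries called 1. The KO response and the interaction share the KO libraries, so their likeness is built in and is not a result; the values are given side by side. The 1213 positive interactions had a median KO response of 0.55 and a median WT response of -0.06, and 1179 of them were called higher in the KO response. The 1990 negative interactions had a median KO response of -0.74 and a median WT response of 0.02, and 1971 were called lower in the KO response.

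**Figure D1:**
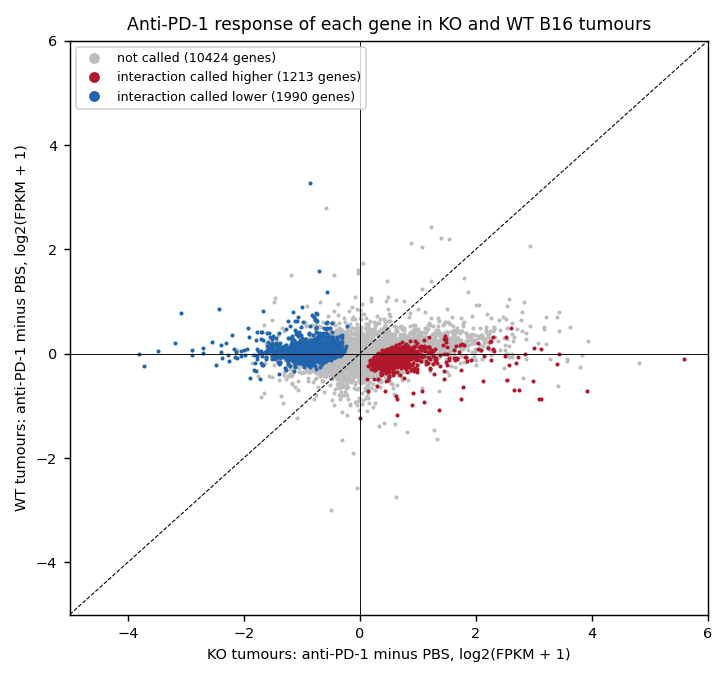
Response to anti-PD-1 (anti-PD-1 minus PBS, log2(FPKM + 1)) of each tested gene in KO tumours against its response in WT tumours, with genes of positive and negative called interaction in colour and the diagonal marking equal responses. The 1213 positive and 1990 negative interactions spread along the KO axis, with medians of 0.55 and -0.74 there and of -0.06 and 0.02 on the WT axis.

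Few genes were called between the genotypes under PBS, which does not show that their profiles were equal. Under PBS, KO against WT called 64 genes (0.47%), 38 higher (0.279%) and 26 lower (0.191%), with 1810 at an unadjusted p under 0.05 in limma, and leaving out 1 library gave between 10 and 81. Under anti-PD-1 the same comparison called 5560 genes (40.8%), 2034 higher (14.9%) and 3526 lower (25.9%). The positive interactions had a median difference between KO and WT of -0.15 under PBS and 0.48 under anti-PD-1. The negative interactions had medians of 0.03 and -0.74. No gene of the lists described below was called in the WT response or in KO against WT under PBS. Their median differences under PBS still ran from -0.64 (fibroblast) to 2.67 (erythrocyte), beside -0.05 over all genes. They were -0.58 for adipocyte, -0.5 for MHC class II, -0.44 for neutrophil, -0.43 for macrophage and -0.29 for pan T cell genes. Hypoxia genes had 0.46 and type I interferon genes 0.3. A lower start in KO tumours enters the interaction as a positive part.

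T cell transcripts were higher with anti-PD-1 in KO tumours and not detectably so in WT tumours. Trac, the constant region of the T cell receptor alpha chain (chromosome 14, 54220521 to 54224206, mm10), was 6.02, 1.76 and 3.44 FPKM in KO anti-PD-1 tumours and 0.249, 0 and 0 FPKM in KO PBS tumours. It was 0.230, 1.34 and 0.592 FPKM in WT anti-PD-1 tumours and 0.619, 0.654 and 0.422 FPKM in WT PBS tumours. All 3 KO anti-PD-1 libraries lay above the other 9, and WT libraries with and without anti-PD-1 overlapped. The interaction of Trac was 1.95 ± 0.444 (limma, adjusted p = 0.0115), and it was called in each of 12 fits that left out 1 library. Cd3d, a chain of the CD3 signalling complex, was 2.84, 1.55 and 1.22 FPKM in KO anti-PD-1 tumours against at most 0.0686 FPKM in KO PBS tumours, at most 0.455 FPKM in WT anti-PD-1 tumours and at most 0.472 FPKM in WT PBS tumours. It reached 1 FPKM in the KO anti-PD-1 libraries alone and so was tested only because it was high there, which its interaction of 1.46 ± 0.331 (limma, adjusted p = 0.0114) has to be read with.

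Of 16 pan T cell genes, 7 passed the filter of at least 1 FPKM in at least 3 libraries. Of these, 4 had a positive interaction and none a negative one, with a median of 1.46, beside 8.9% positive over all tested genes. A gene could pass that filter through the KO anti-PD-1 libraries alone, so the counts of sparse immune lists describe genes already likely to be high there. Beside Trac and Cd3d these were Thy1, a T cell surface glycoprotein (1.83, limma, adjusted p = 0.0336), and Lck, the kinase that starts T cell receptor signalling (1.06, limma, adjusted p = 0.048). Thy1 was called in 6 of 12 fits that left out 1 library, and Lck, which passed the filter through the KO anti-PD-1 libraries alone, in 1 of the 9 in which it was tested. Of 15 CD8 and cytotoxic genes 6 were tested, with 2 positive and a median of 1.36. These were Cst7, which encodes the protease inhibitor cystatin F of cytotoxic granules (1.14 ± 0.294, limma, adjusted p = 0.0188), and Nkg7, a cytotoxic granule membrane protein. Cst7 too passed the filter through the KO anti-PD-1 libraries alone and was not tested when any of them was left out. Without WT anti-PD-1 replicate 2, 3 of 5 tested CD8 and cytotoxic genes were called, and without KO anti-PD-1 replicate 1, 0 of 4 were, as was 1 of 4 pan T cell genes.

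Cytotoxic genes differed strongly among the 3 KO anti-PD-1 libraries. Nkg7 was 13.5, 2.24 and 5.47 FPKM in KO anti-PD-1 tumours and 0, 0.343 and 0 FPKM in KO PBS tumours, against 0, 1.68 and 0.644 FPKM in WT anti-PD-1 tumours and 0, 0.587 and 0 FPKM in WT PBS tumours. Replicate 1 was the highest and replicate 2 came near the highest WT anti-PD-1 library. The interaction of Nkg7 was 2.12 ± 0.692 (limma, adjusted p = 0.0474) and remained called in 2 of 12 fits that left out 1 library, those without WT anti-PD-1 replicate 2 (adjusted p = 0.0334) and without KO anti-PD-1 replicate 2 (adjusted p = 0.0138); over the other 10 it was 0.0638 to 0.1. Gzmb, the granzyme that triggers death of target cells, was 15.0, 1.89 and 6.01 FPKM in KO anti-PD-1 tumours and 0, 0.157 and 0 FPKM in KO PBS tumours, against 0.0803, 3.17 and 0.436 FPKM in WT anti-PD-1 tumours and 0.368, 0.665 and 0.0691 FPKM in WT PBS tumours. Here KO and WT anti-PD-1 libraries overlapped, and the interaction of 2.24 ± 0.82 missed the threshold (limma, adjusted p = 0.0697). It passed without WT anti-PD-1 replicate 2 or KO anti-PD-1 replicate 2, with a lowest adjusted p of 0.0192 over all alternatives.

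Other T cell genes stayed too low to test. Cd8a, the CD8 alpha chain, was 2.68, 0.613 and 2.21 FPKM in KO anti-PD-1 tumours and 0.0621 to 0.276 FPKM in KO PBS tumours, against 0 to 0.725 FPKM in WT anti-PD-1 tumours and 0.0888 to 0.411 FPKM in WT PBS tumours. Ifng, which encodes interferon-gamma, was 1.40, 0.0531 and 0.745 FPKM in KO anti-PD-1 tumours, was listed at 0 in all KO PBS and WT PBS libraries and reached 0.449 FPKM in a single WT anti-PD-1 library. Prf1, the pore-forming perforin, reached 2.21 FPKM and Pdcd1, which encodes PD-1, reached 2.09 FPKM, both in KO anti-PD-1 replicate 1. Foxp3, the regulator of regulatory T cells, was at most 0.143 FPKM in every library. Of 12 checkpoint genes 3 were tested and 0 called (median 0.47), and Cd274, which encodes PD-L1, had an interaction of 0.16 ± 0.531 (limma, adjusted p = 0.843), with values of 32.2, 9.40 and 26.8 FPKM in KO anti-PD-1 tumours and 18.7, 33.3 and 19.2 FPKM in WT anti-PD-1 tumours. The direction of Cd274 turned under equal sums, at -0.04.

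**Figure D2:**
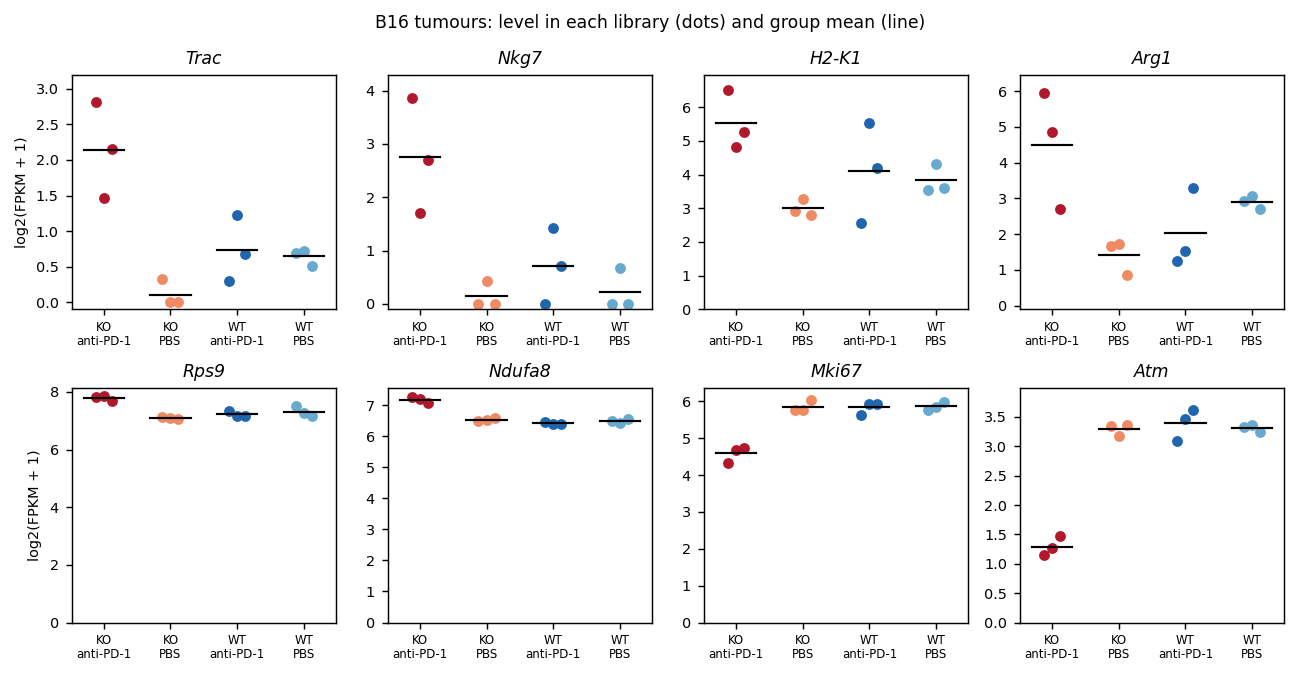
Level (log2(FPKM + 1)) of 8 genes in every B16 library, with a dot for each library and a line for the group mean, groups running from KO anti-PD-1 to WT PBS. Trac lies at 1.76 to 6.02 FPKM in KO anti-PD-1 libraries against at most 1.34 FPKM elsewhere, whereas H2-K1 overlaps between KO and WT anti-PD-1 libraries; Rps9 and Ndufa8 are higher, and Mki67 and Atm lower, in KO anti-PD-1 libraries than in all others.

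Among macrophage and monocyte genes the positive interaction was largest for Arg1 and smaller in the other called members. Of 19 listed, 18 were tested and 4 were positive (22.2%), none negative, with a median of 1.47. In the KO response 16 were called higher. The shares over all tested genes were 8.9% positive and 18.9% higher in the KO response. Arg1, the arginase of alternatively activated and suppressive myeloid cells (chromosome 10, 24915221 to 24927484, mm10), was 61.3, 28.0 and 5.50 FPKM in KO anti-PD-1 tumours and 2.15, 2.33 and 0.810 FPKM in KO PBS tumours. In WT tumours it was 1.36, 1.91 and 8.88 FPKM with anti-PD-1 and 6.56, 7.34 and 5.55 FPKM with PBS. KO anti-PD-1 was above KO PBS in every library but overlapped both WT groups. The interaction was 3.96 ± 1.02 (limma, adjusted p = 0.0191) and was called in 12 of 12 fits that left out 1 library.

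Trem2, a lipid-sensing receptor of tumour macrophages, was 3.94, 2.34 and 2.91 FPKM in KO anti-PD-1 tumours and 1.02, 0.828 and 0.428 FPKM in KO PBS tumours, against 0.623, 1.41 and 0.950 FPKM in WT anti-PD-1 tumours and 0.849, 1.30 and 0.637 FPKM in WT PBS tumours. These groups did not overlap, and the interaction was 1.16 ± 0.298 (limma, adjusted p = 0.0188; called in 12 of 12). C1qa, a chain of complement C1q made by macrophages, was 187, 70.2 and 100.1 FPKM in KO anti-PD-1 tumours against 8.24, 74.6 and 39.9 FPKM in WT anti-PD-1 tumours, which overlapped. Its interaction of 2.79 ± 0.913 (limma, adjusted p = 0.0477) was called in 4 of 12 fits that left out 1 library, with adjusted p-values up to 0.104. Apoe, the lipid carrier that such cells secrete, had 0.81 (limma, adjusted p = 0.0242) and was called in 8 of 12. Without WT anti-PD-1 replicate 2, 8 of 17 tested macrophage genes were positive, and without KO anti-PD-1 replicate 2, 7 of 18. The count fell to 2 of 18 with values adjusted for transcript length and GC content, to 2 of 18 with equal sums and to 0 of 19 with no filter.

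Chemokines and secreted proteins of inflammation followed the same pattern of libraries. Of 15 chemokine genes 12 were tested and 2 were positive (16.7%), with a median of 1.37, beside 8.9% positive over all tested genes. In the KO response 9 were called higher, beside 18.9% of all tested genes. Ccl8, a chemokine that attracts monocytes, was 220.4, 136 and 55.6 FPKM in KO anti-PD-1 tumours and 6.11, 10.6 and 16.8 FPKM in KO PBS tumours, against 7.23, 60.8 and 24 FPKM in WT anti-PD-1 tumours and 14.5, 49 and 24.2 FPKM in WT PBS tumours. KO anti-PD-1 lay above KO PBS, and its lowest library lay below the highest WT anti-PD-1 library. The interaction of Ccl8 was 3.6 ± 1.02 (limma, adjusted p = 0.0285), called in 5 of 12 fits that left out 1 library. The other was Cxcr3, the receptor by which activated T cells follow interferon-induced chemokines (0.94, limma, adjusted p = 0.0329, called in 5 of 12). Ccl7 (2.02, limma, adjusted p = 0.0546), Ccl2 (1.59) and Ccl5 (1.22) were not called. Cxcl9, the interferon-gamma induced ligand of Cxcr3, was 47.2, 2.63 and 27.1 FPKM in KO anti-PD-1 tumours and 0.365, 28.3 and 3.18 FPKM in WT anti-PD-1 tumours, and its interaction of 2.25 ± 1.59 was not called (limma, adjusted p = 0.32).

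Among the 12 named genes of largest positive interaction, several others encode secreted or acute-phase proteins. Hp, haptoglobin, which binds free haemoglobin, was 43.2, 20 and 4.72 FPKM in KO anti-PD-1 tumours and 1.30, 0.587 and 1.16 FPKM in KO PBS tumours, against 2.22, 11.4 and 4.15 FPKM in WT anti-PD-1 tumours and 4.24, 11.5 and 17.8 FPKM in WT PBS tumours. Its interaction was 3.99 ± 1.01 (limma, adjusted p = 0.0178), called in 12 of 12 fits that left out 1 library, while KO anti-PD-1 overlapped both WT groups. Rarres2, which encodes the chemoattractant chemerin, had 3.05 (limma, adjusted p = 0.00972) and was also called in 12 of 12. Gpx3, an extracellular glutathione peroxidase, had 3.51 (10 of 12), Ly6c1, a surface protein of monocytes and endothelium, 2.89 (8 of 12), Saa3, an acute-phase amyloid protein, 3.36 (7 of 12), the complement component C3 3.04 (3 of 12) and the eosinophil chemokine Ccl11 2.86 (2 of 12). Guca1a, a calcium sensor known from photoreceptors, was 9.54, 3.51 and 5.43 FPKM in KO anti-PD-1 tumours, was listed at 0 in all KO PBS and WT anti-PD-1 libraries and in WT PBS was 3.17 FPKM in replicate 2 and listed at 0 in the other two. S100a8, a calcium-binding protein of neutrophils, was the only 1 of 7 tested neutrophil genes called (2.43, limma, adjusted p = 0.0497, called in 2 of 12), of 11 listed. That share was 14.3%, beside 8.9% positive over all tested genes.

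Antigen presentation was higher with anti-PD-1 in KO tumours, but its interaction passed the threshold in no gene of the class I and class II lists in the fit of the 12 B16 libraries. WT anti-PD-1 replicate 2 was also high. Of 19 MHC class I presentation genes tested, 0 were called for the interaction (median 1.59), while 14 were called higher and 1 lower in the KO response. Of all tested genes 8.9% had a positive interaction, and 18.9% were higher and 25% lower in the KO response. H2-K1, a classical class I heavy chain (chromosome 17, 33996017 to 34000347, mm10), was 90.8, 27.3 and 37.4 FPKM in KO anti-PD-1 tumours and 6.59, 8.58 and 5.95 FPKM in KO PBS tumours. In WT tumours it was 4.92, 45.2 and 17.4 FPKM with anti-PD-1 and 10.7, 18.9 and 11.2 FPKM with PBS. KO anti-PD-1 lay above KO PBS and WT PBS in every library and overlapped WT anti-PD-1 through its replicate 2. The interaction of H2-K1 was 2.26 ± 0.887 (limma, adjusted p = 0.0863), and without WT anti-PD-1 replicate 2 it was 2.98 (limma, adjusted p = 0.0199). Class I heavy chains share long stretches of sequence, so the division of reads among H2-K1, H2-D1 and the H2-Q genes is uncertain.

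B2m, the light chain that all class I molecules need, was 3958, 1376 and 2682 FPKM in KO anti-PD-1 tumours and 663, 966 and 886 FPKM in KO PBS tumours, against 481, 1938 and 1073 FPKM in WT anti-PD-1 tumours and 879.7, 1011 and 828 FPKM in WT PBS tumours. Its interaction was 1.41 ± 0.649 (limma, adjusted p = 0.135), and 1.89 without WT anti-PD-1 replicate 2 (limma, adjusted p = 0.0411). Of 10 MHC class II genes 9 were tested, with 0 called for the interaction (median 2.14). In the KO response 8 were called higher, beside 18.9% of all tested genes. H2-Ab1, a class II beta chain, was 90.4, 19.8 and 36.9 FPKM in KO anti-PD-1 tumours against 2.18, 37.0 and 6.43 FPKM in WT anti-PD-1 tumours (interaction 2.99 ± 1.15, limma, adjusted p = 0.0814). Without WT anti-PD-1 replicate 2, 7 of 7 class II genes and 11 of 19 class I genes were positive, and without KO anti-PD-1 replicate 2, 2 of 9 and 9 of 19 were. The limma fit of all 24 libraries, which shares its estimate of spread with the MC38 groups, called 12 of 19 class I genes positive and 1 negative, and 5 of 9 class II genes positive.

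Interferon response genes were spread widely among the anti-PD-1 libraries of both genotypes. The summed FPKM of 25 interferon-gamma response genes was 1268, 208 and 717 in KO anti-PD-1 tumours, 132 to 250.4 in KO PBS, 115 to 748 in WT anti-PD-1 and 168 to 258 in WT PBS. KO anti-PD-1 replicate 2 was within the range of the PBS groups and a WT anti-PD-1 library lay above KO anti-PD-1 replicate 3. Of 23 tested, 0 were called for the interaction (median 1.07) and 7 were called higher in the KO response; without KO anti-PD-1 replicate 2, 3 of 23 were positive, and without WT anti-PD-1 replicate 2, 1 of 20. Of 25 type I interferon response genes, 0 were called (median 0.5) and 3 were higher in the KO response. Over all tested genes 8.9% had a positive interaction and 18.9% were higher in the KO response, shares that the type I list did not reach. The nucleic acid sensing list, at 7.14% positive, was also below the share for the interaction. Of 14 tested nucleic acid sensing genes 1 was positive, Irf3, a transcription factor downstream of STING (0.58, limma, adjusted p = 0.00991, and 0.18 with an adjusted p of 0.427 after adjustment for transcript length and GC content); it overlaps Bcl2l12 on the other strand and the strand used in counting is not given in the sources used here. The median of that list was 0.06 and turned to -0.12 under equal sums, where 0 were positive and 1 negative.

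Other cell types of the tumour were described by the same lists. Of 12 NK cell genes 3 were tested, of 10 B and plasma cell genes 3 and of 10 conventional dendritic cell genes 5. In each list 0 were called for the interaction, with medians of 1.23, 1.02 and 0.76, and 3 were called higher in the KO response. Over all tested genes 8.9% had a positive interaction and 18.9% were higher in the KO response, shares to be read beside every count in this paragraph. Genes of these sparse lists could pass the filter through the KO anti-PD-1 libraries alone. With no filter the medians over the 12, 10 and 10 genes were 0.26, 0.16 and 0.25. Of 14 inflammatory genes 5 were tested and 0 called (median 0.71), with 3 higher in the KO response. Of 14 endothelial genes 13 were tested and 0 called (median 0.72), with 6 higher in the KO response. Of 20 fibroblast genes 19 were tested and 0 called (median 1.26), with 11 higher in the KO response; the collagen gene Col3a1 had 3.72 (limma, adjusted p = 0.0678). Without WT anti-PD-1 replicate 2, 4 of 18 fibroblast genes were positive, and without KO anti-PD-1 replicate 3, 7 of 19. The fit of all 24 libraries called 7 of 20 fibroblast genes and 9 of 19 macrophage genes.

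Genes of skeletal muscle, fat and blood also differed among the same libraries. The summed FPKM of 14 skeletal muscle genes was 2345, 213 and 11.6 in KO anti-PD-1 replicates 1, 2 and 3, against 2.09 to 2.51 in KO PBS, 1.49 to 2.57 in WT anti-PD-1 and 1.26 to 3.43 in WT PBS. Acta1, skeletal muscle alpha-actin, was 728, 59.2 and 3.2 FPKM in KO anti-PD-1 tumours and at most 0.289 FPKM in every other library. It had the most positive interaction of the named genes, 5.70 ± 1.84 (limma, adjusted p = 0.0453), and was called in 0 of 9 fits that left out 1 library. It passed the filter through the KO anti-PD-1 libraries alone and was not tested without any of them. Of 3 tested muscle genes 1 was called, with a median of 4.99, where 8.9% of all tested genes had a positive interaction. The sum of 10 adipocyte genes was 175, 104 and 39.0 in KO anti-PD-1 tumours, against 32.3 to 36.9 in KO PBS, 30.9 to 68.4 in WT anti-PD-1 and 39.7 to 63.9 in WT PBS.

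The 2 adipocyte genes of 7 tested that were called were Fabp4, a fatty acid carrier also made by macrophages and endothelium (1.77 ± 0.435, limma, adjusted p = 0.0158, called in 12 of 12), and Cfd, the adipokine adipsin (4.64 ± 1.42, limma, adjusted p = 0.0383, called in 3 of 12). Without KO anti-PD-1 replicate 3, 6 of 7 were positive. The sum of the 7 erythrocyte genes found, of 8 listed, was 15559, 2036 and 1015 in KO anti-PD-1 tumours, against 199 to 3649 in KO PBS, 334 to 2568 in WT anti-PD-1 and 177 to 287 in WT PBS; 0 of 5 tested were called (median -0.93). KO anti-PD-1 replicate 1 thus held the most muscle, fat, blood, macrophage, T cell and class I transcripts of the 12 libraries. The macrophage sum was 1655, 715 and 793 FPKM in KO anti-PD-1 tumours and at most 692 FPKM elsewhere, and the pan T cell sum was 58.4, 19.9 and 26.2 FPKM against at most 18.7 FPKM elsewhere. Whether the amount of surrounding tissue in a sample has a part in the immune and stromal interactions was not tested; the sum of 12 keratinocyte genes was 2.88 to 4.43 in KO anti-PD-1 libraries and at most 3.61 elsewhere, with 3 of the 12 genes at 0 in all libraries. KO anti-PD-1 replicate 3 had a muscle sum of 11.6 with a pan T cell sum of 26.2, above all 9 other libraries for both.

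**Figure D3:**
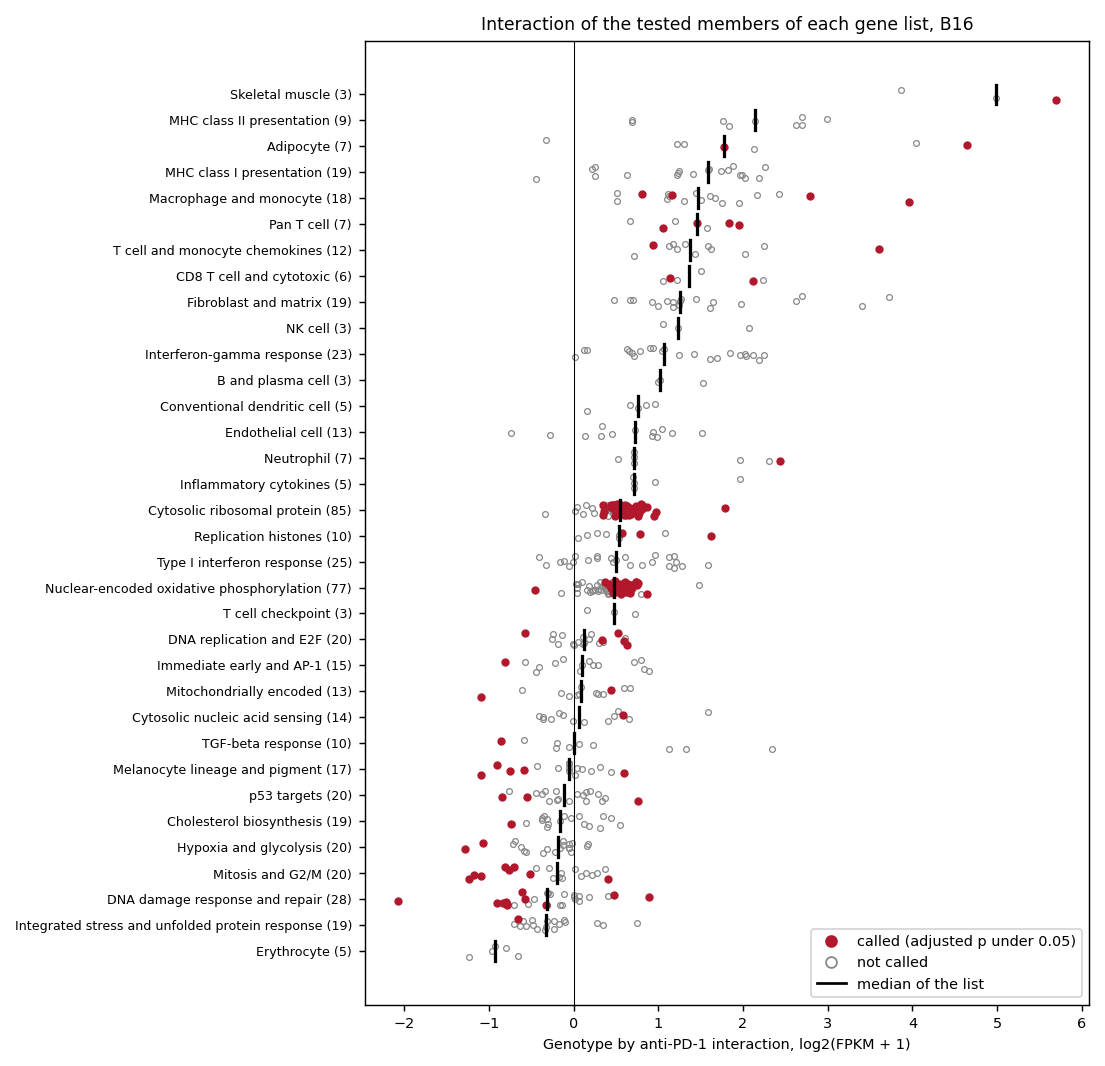
Interaction (log2) of each tested gene by gene list, for lists with at least 3 tested genes, with filled dots for called genes, open dots for the rest and a bar for the list median. Ribosomal protein and oxidative phosphorylation genes lie closely around medians of 0.55 and 0.48. The tested members of the MHC, macrophage, pan T cell and CD8 lists have medians above 1 with wide spread. Pan T cell and CD8 genes could pass the filter through the KO anti-PD-1 libraries alone. With no filter their medians were 0.72 over 16 genes and 1.04 over 15.

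Protein synthesis and respiration genes had positive interactions in many of their members. Of 89 cytosolic ribosomal protein genes 85 were tested, 57 were positive and none negative, with a median interaction of 0.55; 78 were called higher and 1 lower in the KO response. Of 81 nuclear-encoded oxidative phosphorylation genes 77 were tested, 36 were positive and 1 negative, with a median of 0.48; 55 were called higher and 1 lower in the KO response. Over all tested genes 8.9% had a positive interaction and 18.9% were higher in the KO response. The ribosomal and respiratory lists had median transcript lengths of 1049 and 1005 bases. In the length decile of 644 to 1251 bases 25.2% of all tested genes were positive, with a median interaction of 0.35. The changes in both lists were small and close between replicates. Rps9, a protein of the small ribosomal subunit (chromosome 7, 3703993 to 3706897, mm10), was 227, 229.7 and 207 FPKM in KO anti-PD-1 tumours and 138, 135 and 131 FPKM in KO PBS tumours, against 160.1, 143 and 143 FPKM in WT anti-PD-1 tumours and 181, 152 and 144 FPKM in WT PBS tumours. Each KO anti-PD-1 library lay above the other 9, and the interaction was 0.81 ± 0.13 (limma, adjusted p = 0.00249). Rps14 (0.81), Rps15 (0.68) and Rps24 (0.65) were called too, and all 4 were called in 12 of 12 fits that left out 1 library. Processed pseudogenes share the sequence of ribosomal protein genes, so the level of a single member is uncertain.

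Ndufa8, a subunit of respiratory complex I (chromosome 2, 36036326 to 36049406, mm10), was 153, 145 and 135 FPKM in KO anti-PD-1 tumours and 88.7, 91.4 and 95.0 FPKM in KO PBS tumours, against 87.8, 82.9 and 82.9 FPKM in WT anti-PD-1 tumours and 89.7, 85.7 and 93.0 FPKM in WT PBS tumours. The KO anti-PD-1 libraries were separate and the other 3 groups lay together. Its interaction was 0.73 ± 0.0975 (limma, adjusted p = 0.00117). Ndufb7 (0.86 ± 0.139, limma, adjusted p = 0.00247), Ndufs8 (0.75) and Ndufb6 (0.63), all complex I subunits, were also called in 12 of 12 fits that left out 1 library. The negative member was Ndufs1, the largest complex I subunit (-0.46, limma, adjusted p = 0.0333). The ribosomal count ranged over 40 to 66 and the oxidative phosphorylation count over 28 to 42 when 1 library was left out. Both counts fell under another scaling, to 20 and 16 positive genes with equal sums, to 13 and 7 after quantile normalization and to 17 and 13 after adjustment for length and GC content, with medians that stayed positive at 0.19 to 0.37.

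Of the 13 genes encoded by the mitochondrial genome, 1 was positive and 1 negative. mt-Nd4l, a complex I subunit, was 822, 919 and 1149 FPKM in KO anti-PD-1 tumours and 2026, 2273 and 2115 FPKM in KO PBS tumours, against 1460.3, 1902 and 1864 FPKM in WT anti-PD-1 tumours and 1839, 1651 and 1925 FPKM in WT PBS tumours. Its interaction was -1.10 ± 0.194 (limma, adjusted p = 0.00373), and it overlaps mt-Nd4, with which it may share reads. mt-Co2, a subunit of cytochrome c oxidase, had 0.44 (limma, adjusted p = 0.0477) and was called in 2 of 12 fits that left out 1 library. The list median was 0.09 and turned to -0.13 under equal sums. On the deposited scale 36 of 77 nuclear genes of respiration and 1 of 13 mitochondrial genes were positive, counts that were not tested against each other. The mitochondrial share was 7.69% in each direction, beside 8.9% positive and 14.6% negative over all tested genes. After adjustment for transcript length and GC content 13 of 77 nuclear genes (16.9%) and 3 of 13 mitochondrial genes (23.1%) were positive.

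Promoters of these nuclear genes are printed because many members of both groups had a positive interaction. A further reason is that GABP, an ETS factor that binds CCGGAAG, and NRF1 are textbook regulators of respiratory chain genes. Whether such factors have a part in the interaction was not tested. The windows are the 250 bases before the gene start in RefSeq (GRCm38.p6), on the gene's strand, with each CCGGAAG or its reverse complement CTTCCGG in capitals. They belong to called members of small p in each group that held a motif and whose following bases were found in the gene's transcript. Genes on the chromosome of Rps14 were left out before this choice, so members of smaller p may have been passed over. The regions are chr8:83566508-83566757 (plus strand) for Ndufb7, chr4:40279422-40279671 (minus) for Ndufb6, chr17:24719813-24720062 (plus) for Rps2 and chr17:33955666-33955915 (minus) for Rps18.
Ndufb7: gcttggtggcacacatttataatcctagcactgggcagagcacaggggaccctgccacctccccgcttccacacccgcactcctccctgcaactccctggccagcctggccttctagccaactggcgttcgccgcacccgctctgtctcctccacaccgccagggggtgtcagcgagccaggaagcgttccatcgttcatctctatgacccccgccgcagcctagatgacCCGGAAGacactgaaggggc
Ndufb6: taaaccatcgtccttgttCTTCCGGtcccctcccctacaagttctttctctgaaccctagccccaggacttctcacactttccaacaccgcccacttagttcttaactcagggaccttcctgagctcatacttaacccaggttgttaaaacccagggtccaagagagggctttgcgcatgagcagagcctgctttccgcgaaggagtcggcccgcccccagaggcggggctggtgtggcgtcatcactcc
Rps2: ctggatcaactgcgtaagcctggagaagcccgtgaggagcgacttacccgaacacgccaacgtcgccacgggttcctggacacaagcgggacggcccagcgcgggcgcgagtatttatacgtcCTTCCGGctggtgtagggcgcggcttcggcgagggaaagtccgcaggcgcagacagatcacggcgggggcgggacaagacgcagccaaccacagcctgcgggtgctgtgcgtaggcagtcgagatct
Rps18: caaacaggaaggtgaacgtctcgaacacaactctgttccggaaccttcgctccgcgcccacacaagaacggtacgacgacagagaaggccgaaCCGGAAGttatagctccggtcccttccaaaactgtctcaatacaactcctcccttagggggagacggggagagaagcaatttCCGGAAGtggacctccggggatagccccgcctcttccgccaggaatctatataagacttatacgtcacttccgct

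The CCGGAAG motif was found on the gene's strand in Ndufb7 and Rps18, with 2 matches in Rps18, and on the other strand in Ndufb6 and Rps2. Rps2 was 608, 590 and 551 FPKM in KO anti-PD-1 tumours and 354, 344 and 337 FPKM in KO PBS tumours, against 462, 334 and 393 FPKM in WT anti-PD-1 tumours and 421, 399 and 374 FPKM in WT PBS tumours (interaction 0.77, limma, adjusted p = 0.00601). On either strand the motif was present in 7.05% of 27025 promoters of the same length and in 14.9% of the 9189 tested genes with a promoter. It was present in 13 of 41 ribosomal protein promoters with a positive interaction (31.7%) and in 5 of 20 of those not called (25%). Among oxidative phosphorylation promoters it was present in 7 of 30 positive (23.3%) and 4 of 32 not called (12.5%). The NRF1 consensus, a palindrome searched without mismatch, was present in 1.78% of tested promoters, in 2 of 30 positive and 2 of 32 uncalled oxidative phosphorylation promoters, and in 0 of 61 ribosomal ones. The motif AAGATGGC of a further factor, YY1, was also searched. It was present in 2.15% of tested promoters, in 0 of 62 oxidative phosphorylation promoters and in 1 of 61 ribosomal ones. These shares are descriptions of the windows and were not tested.

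Several genes of negative interaction had levels near 0 in KO anti-PD-1 tumours and well above it in the other 3 groups. Qser1, a protein that in human stem cells protects developmental promoters from methylation (chromosome 2, 104754795 to 104816760, mm10), was listed at 0 in all 3 KO anti-PD-1 libraries, against 12.1, 12.2 and 14.8 FPKM in KO PBS tumours, 14.2, 14.1 and 16 FPKM in WT anti-PD-1 tumours and 15.5, 15.2 and 13.9 FPKM in WT PBS tumours. Its fitted interaction on the log2(FPKM + 1) scale, -3.80 ± 0.131 (limma, adjusted p = 1.24e-07), depends on the added 1 and is not a fold change. Atp7a, a copper transporter that supplies tyrosinase in pigment cells (chromosome X, 106027276 to 106124926, mm10), was 1.13, 1.42 and 1.99 FPKM in KO anti-PD-1 tumours and 16.3, 17.4 and 18.9 FPKM in KO PBS tumours, against 14.9, 18.9 and 19.5 FPKM in WT anti-PD-1 tumours and 16.3, 17.0 and 20.6 FPKM in WT PBS tumours. The KO anti-PD-1 libraries were far below the other 9, which overlapped, and the interaction of Atp7a was -2.88 ± 0.201 (limma, adjusted p = 4.16e-05).

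Itgav, the integrin alpha-V chain (chromosome 2, 83724397 to 83806916, mm10), was 0.979, 0.996 and 1.32 FPKM in KO anti-PD-1 tumours and 7.73, 23.4 and 25.5 FPKM in KO PBS tumours, against 22.9, 23.9 and 22.3 FPKM in WT anti-PD-1 tumours and 8.22, 9.09 and 27.7 FPKM in WT PBS tumours. KO anti-PD-1 lay below the rest, and the PBS libraries of both genotypes split into high and low values. The interaction of Itgav was -3.88 ± 0.636 (limma, adjusted p = 0.00267). Klhl11, a ubiquitin ligase adaptor (-2.78), Ankfn1 (-2.72), the transcription factor Tcf12 (-2.41), Uprt (-2.30), the RNA-binding ubiquitin ligase Rc3h2 (-2.27) and Utrn, which encodes the dystrophin relative utrophin (-2.25), were called in 12 of 12 fits that left out 1 library. So was Zbed6, a transcriptional repressor (-3.50, limma, adjusted p = 0.00056), whose exons overlap Zc3h11a and Gm38394 on the same strand, so that their reads may be shared. Zfp422, a zinc finger protein, had -2.99 (limma, adjusted p = 0.0458) and was called in 4 of 12.

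Krcc1 had a different shape from the other negative interactions. It was 48.4, 11.9 and 46.9 FPKM in KO anti-PD-1 tumours, 49.4, 46.6 and 54.9 FPKM in KO PBS tumours and 48.0, 48.8 and 48.3 FPKM in WT anti-PD-1 tumours, against 16.2, 15.3 and 14.7 FPKM in WT PBS tumours. The WT PBS libraries were the low group, together with KO anti-PD-1 replicate 2. The interaction was -2.30 ± 0.552 (limma, adjusted p = 0.0144), ranged over -2.63 to -1.67 when 1 library was left out, and the WT response of 1.59 was not called.

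DNA damage genes gave more negative than positive interactions, as did all tested genes. Of 28 DNA damage response and repair genes, all tested, 9 were negative (32.1%) and 2 positive (7.14%), with a median of -0.31. Over all tested genes 14.6% were negative and 8.9% positive. In the KO response 13 were called lower and 2 higher, where 25% of all tested genes were lower and 18.9% higher. Atm, the kinase that activates CHK2 at double-strand breaks (chromosome 9, 53439149 to 53536740, mm10), was 1.21, 1.40 and 1.78 FPKM in KO anti-PD-1 tumours and 9.13, 8.07 and 9.24 FPKM in KO PBS tumours, against 7.50, 10.1 and 11.3 FPKM in WT anti-PD-1 tumours and 9.02, 9.33 and 8.42 FPKM in WT PBS tumours. KO anti-PD-1 was separate from all others, and the interaction was -2.08 ± 0.191 (limma, adjusted p = 0.000308). Atr, the kinase of stalled replication forks, had -0.90 (limma, adjusted p = 0.0026), and Mdc1, the scaffold of damage foci, -0.80 (limma, adjusted p = 0.00443). Chek1, which encodes the ATR effector CHK1, had -0.84, Fancd2 of the crosslink repair pathway -0.79 and Prkdc, the kinase of end joining, -0.79. After adjustment for transcript length and GC content the list held 3 negative genes, Atm and Mdc1 among them. Chek1, Fancd2 and Prkdc therefore did not all keep the call.

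The positive members were H2afx, the histone variant marked at breaks (0.89, limma, adjusted p = 0.00281), and Trp53, which encodes p53 (0.47, limma, adjusted p = 0.0413). H2afx was called in 12 of 12 fits that left out 1 library. Without WT anti-PD-1 replicate 2 or replicate 3, among other settings, the list held 1 positive gene, so Trp53 was not called there. H2afx has a transcript of 1384 bases, against 9819 for Atm, 8102 for Atr and 7335 for Mdc1. After adjustment for transcript length and GC content the list held 3 negative and 0 positive genes with a median of -0.03, and Atm remained at -1.34 (limma, adjusted p = 0.00108), Mdc1 at -0.42 (limma, adjusted p = 0.042), Atr at -0.20 (limma, adjusted p = 0.362) and H2afx at 0.51 (limma, adjusted p = 0.0563).

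Mitotic genes showed the same direction. Of 20 tested, 7 were negative (35%) and 1 positive (5%), with a median of -0.2, against 14.6% and 8.9% of all tested genes. In the KO response 9 were called lower and 3 higher, where 25% of all tested genes were lower and 18.9% higher. Mki67, the proliferation marker that coats mitotic chromosomes (chromosome 7, 135689784 to 135716361, mm10), was 19.1, 24.9 and 25.9 FPKM in KO anti-PD-1 tumours and 53.1, 53.4 and 64.5 FPKM in KO PBS tumours, against 49, 60.1 and 60.5 FPKM in WT anti-PD-1 tumours and 53.1, 56.5 and 62.3 FPKM in WT PBS tumours. All KO anti-PD-1 libraries lay below the other 9, and the interaction was -1.24 ± 0.186 (limma, adjusted p = 0.0019). Cenpf (-1.18) and Cenpe (-1.10), large kinetochore proteins, Top2a, the topoisomerase of chromosome separation (-0.77), the checkpoint kinase Bub1 (-0.81) and the spindle motor Kif11 (-0.71) were negative. The positive member was Cdc20, an activator of the anaphase-promoting complex (0.41, limma, adjusted p = 0.0351). With equal sums, and without WT anti-PD-1 replicate 1 or replicate 2 among other settings, 0 mitotic genes were positive. After the length and GC adjustment 3 were negative and 0 positive (median -0.22). Mki67 then stood at -0.57 (limma, adjusted p = 0.0302), Top2a at -0.35 (limma, adjusted p = 0.0471), Cenpf at -0.40 (limma, adjusted p = 0.0895) and Cenpe at -0.44 (limma, adjusted p = 0.0574). Mki67 and Top2a were among the 3 still negative, so Bub1 and Kif11 did not both keep the call.

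Replication genes gave mixed calls that depended on the scaling. Of 20 replication and E2F target genes 4 were positive (20%) and 1 negative (5%), with a median of 0.12. Over all tested genes 8.9% were positive and 14.6% negative. Under equal sums 1 replication gene was positive and 2 negative, with a median of -0.09. Their difference from the mitotic genes was not tested. Gins1 (0.63, limma, adjusted p = 0.00682) and Gins2 (0.59, limma, adjusted p = 0.0257), subunits of the replicative helicase, and the transcription factor E2f1 (0.52, limma, adjusted p = 0.0217) were positive, and Pola1, the catalytic subunit of DNA polymerase alpha, was negative (-0.58, limma, adjusted p = 0.0148). Gins2 was called in 8 of 12 fits that left out 1 library. After the length and GC adjustment 1 was positive and 0 negative. Of 10 tested histone genes, 3 were positive (30%, median 0.54), among them Hist1h2af (1.62, limma, adjusted p = 0.0395, called in 3 of 12). With equal sums, with no filter, among protein-coding genes alone and after the length and GC adjustment 0 histone genes were positive. Near-identical copies make single histone genes uncertain.

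The p53 targets gave few calls. Of 20 tested, 1 was positive and 2 negative, with a median of -0.12, no more than the 8.9% and 14.6% over all genes. With equal sums 1 of 21 was positive and 5 negative, and after the length and GC adjustment 0 were called in either direction. Bax, which permeabilises mitochondria in apoptosis, had 0.76 (limma, adjusted p = 0.0168), Polk, a polymerase that bypasses lesions, -0.85 (limma, adjusted p = 0.00442) and Rrm2b, a ribonucleotide reductase subunit, -0.55 (limma, adjusted p = 0.022), which was not called without KO PBS replicate 2 (-0.50, limma, adjusted p = 0.0528). After the length and GC adjustment Bax had an adjusted p of 0.0977, Polk of 0.0523 and Rrm2b of 0.404 (limma). Cdkn1a, which encodes the cell cycle inhibitor p21, was 80.8, 73.8 and 63.7 FPKM in KO anti-PD-1 tumours and 66.4, 65.4 and 69.4 FPKM in KO PBS tumours, against 51.4, 34.6 and 43.4 FPKM in WT anti-PD-1 tumours and 48.8, 43.8 and 42.4 FPKM in WT PBS tumours. Both KO groups lay above both WT groups, and the interaction of 0.19 ± 0.186 was not called (limma, adjusted p = 0.491) and turned to -0.03 under equal sums. Mdm2, the ubiquitin ligase that limits p53, had -0.21 ± 0.149 (limma, adjusted p = 0.322).

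Most pigment cell genes had no called interaction. Of 17 tested melanocyte genes 4 were negative and 1 positive, with a median of -0.05, where 14.6% of all tested genes were negative and 8.9% positive. Tyrp1, an enzyme of melanin synthesis (chromosome 4, 80834123 to 80851719, mm10), was 703, 751 and 922 FPKM in KO anti-PD-1 tumours and 1784, 1319 and 1458 FPKM in KO PBS tumours, against 1577, 1432 and 1292 FPKM in WT anti-PD-1 tumours and 1376, 1259 and 1223 FPKM in WT PBS tumours. KO anti-PD-1 lay below all others, and the interaction was -1.09 ± 0.189 (limma, adjusted p = 0.00351). Mitf, the master regulator of the lineage, was 78.0, 85.3 and 111 FPKM in KO anti-PD-1 tumours and 133, 173 and 196 FPKM in KO PBS tumours, against 132, 167 and 152 FPKM in WT anti-PD-1 tumours and 156, 173 and 157 FPKM in WT PBS tumours. These did not overlap either, and its interaction of -0.75 ± 0.223 (limma, adjusted p = 0.0332) was called in 4 of 12 fits that left out 1 library, with adjusted p-values up to 0.0724.

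Mlana, the antigen melan-A, went the other way, with 928, 1038 and 919 FPKM in KO anti-PD-1 tumours and 600.1, 557 and 705 FPKM in KO PBS tumours, against 675, 745 and 717 FPKM in WT anti-PD-1 tumours and 677, 654 and 739.9 FPKM in WT PBS tumours (interaction 0.59 ± 0.139, limma, adjusted p = 0.0132). It was called in 17 of 21 alternatives, and its value fell to 0.37 after quantile normalization (limma, adjusted p = 0.203). With equal sums, after quantile normalization or among protein-coding genes alone, 0 pigment genes were positive and 4 negative. Rab27a, which tethers melanosomes, had -0.90 (limma, adjusted p = 0.0182), and Tyr, tyrosinase, -0.59 (limma, adjusted p = 0.0403, called in 3 of 12). Sox10, a lineage factor (0.10, limma, adjusted p = 0.621, turning to -0.12 under equal sums), and Dct, a further melanin enzyme (-0.06, limma, adjusted p = 0.814), were not called. After the length and GC adjustment Tyrp1 stood at -1.14 (limma, adjusted p = 0.0104) and Rab27a at -0.91 (limma, adjusted p = 0.0366), while Mitf stood at -0.38 (limma, adjusted p = 0.218) and Tyr at -0.01 (limma, adjusted p = 0.973).

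Stress and metabolic lists gave isolated negative calls, in each list a share below the 14.6% of all tested genes, and in each list 0 genes were called after the length and GC adjustment. Of 20 hypoxia and glycolysis genes 2 were negative and 0 positive (median -0.19), Ero1l, an oxidase of protein folding (-1.28, limma, adjusted p = 0.0294, called in 6 of 12), and the hexokinase Hk2 (-1.07, limma, adjusted p = 0.0496, called in 2 of 12). Of 19 tested genes of the integrated stress and unfolded protein responses 1 was negative (median -0.33), the chaperone Hyou1 (-0.66, limma, adjusted p = 0.0395, called in 2 of 12). The negative call among 15 tested immediate early genes was Klf6 (-0.81, limma, adjusted p = 0.005), that among 19 cholesterol synthesis genes was Lss, lanosterol synthase (-0.74, limma, adjusted p = 0.0147), and that among 10 tested TGF-beta pathway genes was the receptor Tgfbr1 (-0.86, limma, adjusted p = 0.00215). The median of the immediate early list, 0.1, turned to -0.04 under equal sums.

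The interaction ran along transcript length and GC content over all genes. In deciles of the tested genes by the length of the longest annotated transcript, the median interaction was -0.15 in the shortest decile, 0.35 in the next (644 to 1251 bases), 0.02 in the sixth and -0.55 in the longest (6351 to 27910 bases). In the longest decile 48.4% of genes were negative and 0.22% positive, whereas in the decile of 644 to 1251 bases 25.2% were positive and 8.08% negative. By GC content the median was -0.34 in the lowest decile (17.14% to 41.02%), where 30.7% were negative, and 0.24 in the highest (57.56% to 78.63%), where 16.3% were positive and 2.28% negative. The median WT response lay between -0.02 and 0 in every length decile and between -0.03 and 0 in every GC decile.

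The trend belonged to all 3 KO anti-PD-1 libraries. Relative to each gene's mean over the 12 libraries, the longest decile had a median of -0.54, -0.41 and -0.33 log2 in KO anti-PD-1 replicates 1, 2 and 3 and of 0.08 to 0.21 in the other 9. The lowest GC decile had -0.35, -0.21 and -0.28 in the KO anti-PD-1 libraries and 0 to 0.18 in the others. With the part of each library's deviation that follows length and GC removed, an alternative chosen after the data were seen, 1179 genes had a called interaction, 445 positive and 734 negative. Of these, 287 positive and 665 negative genes were also called in the same direction before the adjustment, 0 were called in the opposite direction, and 227 were called only after it. A further 2248 genes were called only before it. The part of length and GC in the interaction of single genes, whether technical or biological, was not tested further, and the ribosomal, respiratory, DNA damage and mitotic lists above are among those whose counts moved with it.

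**Figure D4:**
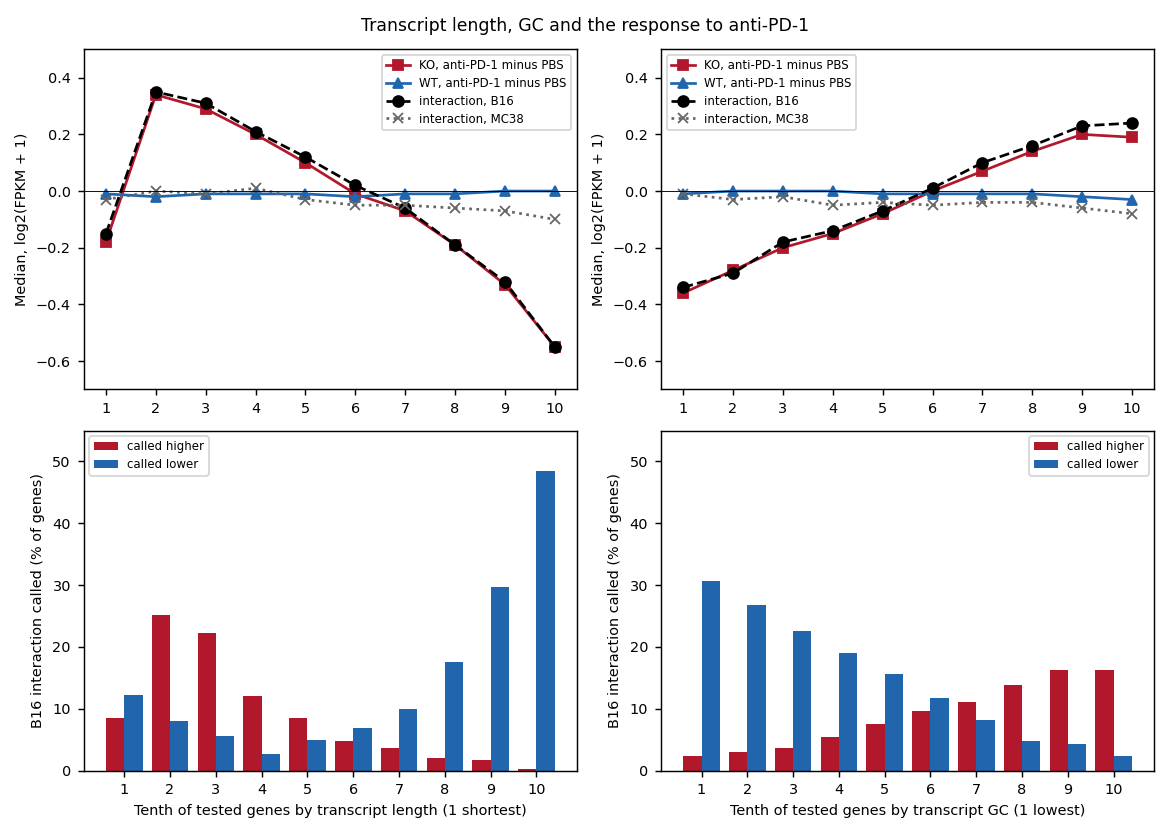
Median interaction (log2) over deciles of the tested genes by transcript length and by GC content, with the KO response, the WT response and the MC38 interaction beside it; the lower panels give the percent of genes with a called B16 interaction in each direction. The B16 interaction falls to -0.55 in the longest decile and -0.34 in the lowest GC decile, whereas the MC38 medians stay between -0.1 and 0.01.

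The same contrast in MC38 tumours called fewer genes and had little trend with length. In MC38, 346 of 14209 genes were called (2.44%), 257 positive (1.81%) and 89 negative (0.626%), and the medians of the length deciles ran from 0.01 to -0.10. A limma fit of all 24 libraries tested the difference of the interactions between the lines over 15655 genes and called 1848 (11.8%), of which 712 were more positive (4.55%) and 1136 more negative (7.26%) in B16 than in MC38. Among the genes low in the B16 KO anti-PD-1 libraries, Qser1 had -0.20 in MC38 (difference -3.6, limma, adjusted p = 4.29e-10) and Atm -0.26 (difference -1.82, limma, adjusted p = 0.000921). Ndufa8 had -0.04 in MC38 (difference 0.77, limma, adjusted p = 0.00583) and Rps9 0.24 (difference 0.57, limma, adjusted p = 0.0439). T cell genes were not found to differ between the lines: the MC38 interaction of Trac was 2.49 (difference -0.54, limma, adjusted p = 0.598), that of Cd3d 1.47 (difference -0.02, limma, adjusted p = 0.984) and that of Nkg7 2.09 (difference 0.02, limma, adjusted p = 0.989). Arg1, at 0.82 in MC38, had a difference of 3.14 that did not pass (limma, adjusted p = 0.121).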

How the data were processed

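Total RNA of tumour tissue was extracted with Trizol and sequenced from standard Illumina libraries, per the labels' protocols. FastQC, STAR 2.5, Cuffnorm, DESeq and build mm10 are named in the submitters' processing notes without role or order; strand, annotation release and normalization are not given in the sources used here. The deposited values were taken as FPKM, judged from the values: they are not whole numbers and their sums differ between libraries. Each file holds 55335 Ensembl genes, of which 55154 matched GENCODE M21 (GRCm38), the source of symbols, positions, transcript lengths and GC content, and 181 did not. Counts were not used here. Depth was read from the pile-up of value times length in low genes, and no intervals from counts could be given. No pair of B16 libraries shared more than 0.0294% of nonzero values.

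Groups were taken from the labels, and replicates were numbered in accession order, which pairs nothing. Values were analysed as log2(FPKM + 1), so changes of low genes are understated. Genes reaching 1 FPKM in 3 or more of the B16 libraries were fitted in limma 3.58.1 (R 4.3.3) with 1 mean per group and a trend of variance on level. Calls are Benjamini-Hochberg adjusted p-values under 0.05, over all genes tested. Errors are standard errors from that fit. The steps were tested on simulated data. A fit of all 24 libraries compared the lines. Alternatives were a pseudocount of 0.1, no filter, a filter of 6 libraries, quantile normalization, protein-coding genes rescaled alone, no trend, the fit of all 24 libraries and leaving out each library. A length and GC adjustment (splines of 4 degrees of freedom per library) and rescaling to equal sums were added after the data were seen.

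Genes named were Chek2, a panel of immune, pigment and p53 genes, the 12 most positive and 12 most negative called interactions with a gene name and a group mean of at least 2 FPKM, and up to 4 members of smallest p in each list. Ndufs1, Trp53, Chek1, Fancd2, Prkdc, Bub1, Kif11, Cdc20, Rps2 and Rps18 fall outside that rule and were picked with their values in view. A panel gene is not reported here. The contrast, the members and the gene lists were chosen with earlier results of these data known.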

Additional observations from a re-analysis of the deposited data

Results flagged for a closer look

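The interaction differed between B16 and MC38 in 1848 of 15655 genes by limma's test of the difference itself (712 more positive and 1136 more negative in B16). Among the genes named above, the B16 minus MC38 difference was 3.24 for Guca1a, 0.51 for Mlana, -1.50 for Mitf, -1.68 for Uprt, -2.07 for Rc3h2, -2.19 for Utrn, -2.26 for Tcf12, -2.44 for Klhl11, -2.74 for Ankfn1, -2.81 for Itgav, -2.90 for Atp7a, -3.09 for Zbed6 and -3.60 for Qser1, all in log2 units. The Mitf interaction was -0.75 in B16 and 0.75 in MC38. Each group had 3 libraries, so no search for a single outlying library within a group was made.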

How the results depend on the processing

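No paired analysis was possible because the labels give the libraries no replicate numbers, and the numbers used here follow accession order. The count of called interactions was 2162 to 3305 with 1 library left out and 1179 to 4360 under the other alternatives, the lowest after the length and GC adjustment, which also gave 3896 calls for the KO response and 3392 for KO against WT under anti-PD-1. KO against WT under PBS gave 42 calls with a pseudocount of 0.1, 33 with no filter, 41 without a trend, 331 in the fit of all 24 libraries and 10 to 81 with 1 library left out. The WT response gave 1 call in the fit of all 24 libraries and 0 to 2 with 1 library left out. The MC38 interaction gave 45 calls with no filter and 48 to 725 with 1 library left out. The KO response gave 4493 to 6025 and KO against WT under anti-PD-1 4119 to 5573 with 1 library left out, and the difference between lines 1378 to 2101. Chek2, KO against WT, ranged over -0.47 to -0.27 and was called throughout. The causes were not tested.

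The named genes whose interaction changed sign were all uncalled. With protein-coding genes alone the values were -0.12 for Sox10, -0.03 for Cdkn1a, -0.13 for Chek2 and -0.04 for Cd274. With equal sums they were the same to 2 decimals. After the length and GC adjustment Sox10 was at -0.25, Cdkn1a at -0.18, Chek2 at -0.05 and Dct at 0.11, and after quantile normalization Sox10 was at -0.22. With 1 library left out, Cd274 ranged over -0.16 to 0.68 and Dct over -0.21 to 0.06. Over 1302 values of 110 named genes with 1 library left out, 1080 kept direction and side of the threshold, 183 lost the call, 36 gained it and 3 changed sign. After the length and GC adjustment 39 of 110 lost the call, and with no filter 29 did. Depth limits genes near 0 FPKM, where counts of 0 and of few fragments could not be separated.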
